A study of Mus musculus with 14 samples.

Results

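Nppa and Nppb are neighbouring genes on mouse chromosome 4 that encode the precursors of atrial natriuretic peptide (ANP) and B-type natriuretic peptide (BNP). They were followed through 14 libraries of 3P-seq, a sequencing method whose tags are counted at the positions where transcripts are cleaved and receive their poly(A) tail. All plus-strand poly(A) sites in a fixed window of 25 kb around the pair on chromosome 4 (build mm9) were taken, whatever their level. Merging overlapping sites over the libraries left 11 sites in this window out of 159969 in all. By their position, 5 of these were assigned to Nppb and lay between 147360172 and 147361312, and 6 were assigned to Nppa and lay between 147375299 and 147376358. The gene limits were set by position alone, since annotation of this build was not used here, so exons and UTRs are not marked.

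Wild-type mice and mice lacking the microRNA miR-22 each gave 1 library from heart, muscle, liver, kidney, lung and white adipose tissue, 12 in all. The labels name the genetic background 129S5/SvEvBrd for every library, give no age or sex, and do not say which heart chambers were taken or whether tissues share an animal. An embryonic stem cell library (mESC) and a library of the fibroblast line 3T3 complete the set, and the labels give no miR-22 genotype for these 2. No group was replicated, so the spread given here is that between the 2 genotypes within a tissue (n = 2), and the p-values do not measure the spread between animals.

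Libraries held between 2036838 and 6010465 tags. Mitochondrial tags made up 22.6% of the wild-type and 31.3% of the knockout heart library, and between 3.52% and 22.7% of the other tissue libraries. Levels are given as counts-per-million values (CPM) after scaling by the trimmed mean of M-values (TMM) over 23856 tested sites. The mature miR-22 is not polyadenylated and is not seen by this method, so its level gave no check of the genotype labels. For the same lack of annotation, no marker genes of the tissues could be looked up and the receptors and processing enzymes of the pathway were not analysed here.

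Heart muscle cells secrete ANP and BNP when the heart wall is stretched. Both hormones act on a receptor guanylyl cyclase, raise cyclic GMP in kidney and vessel cells, and so increase sodium excretion and relax vessels. Nppa is known as an atrial gene and Nppb as a gene expressed in both atria and ventricles, and both are widely used as markers of load on the ventricle. The RefSeq gene order places 2510039O18Rik before Nppb and Clcn6 after Nppa, with no protein-coding gene between the pair.

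The promoters of the pair are printed because the members were high in the same 2 libraries. Both windows run from 250 bases before to 50 bases after the gene's start, on the plus strand of build GRCm38.p6 (RefSeq), a different build from that of the sites. Capitals mark matches, on either strand, to TATAAA (the TATA box), GATAA (GATA factors), AAGTG (NKX2-5) and CATTCC (M-CAT, bound by TEAD factors).
Nppb promoter, chr4:147985650-147985949: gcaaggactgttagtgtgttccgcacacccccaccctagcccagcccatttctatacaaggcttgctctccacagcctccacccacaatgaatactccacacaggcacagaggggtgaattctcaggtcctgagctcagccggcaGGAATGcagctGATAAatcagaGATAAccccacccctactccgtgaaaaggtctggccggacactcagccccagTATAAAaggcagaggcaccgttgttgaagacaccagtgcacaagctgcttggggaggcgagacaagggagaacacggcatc
Nppa promoter, chr4:148000472-148000771: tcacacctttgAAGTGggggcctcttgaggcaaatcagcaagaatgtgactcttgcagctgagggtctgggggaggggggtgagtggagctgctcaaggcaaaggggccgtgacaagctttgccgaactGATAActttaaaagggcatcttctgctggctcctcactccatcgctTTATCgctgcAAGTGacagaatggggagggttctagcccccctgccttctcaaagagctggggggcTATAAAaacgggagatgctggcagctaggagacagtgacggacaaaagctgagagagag

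Both windows held the TATA letters on the gene's strand, which began 31 bases before the annotated start of Nppb and 9 bases before that of Nppa. Each held 2 GATAA matches. In Nppb both read forward and began 94 and 83 bases before the start, and in Nppa 1 of them read backward. The M-CAT letters were matched in Nppb only, and the NKX2-5 letters in Nppa only, 2 times. Among 32851 promoter windows of the same length, 25.4% held GATAA on either strand and 5.27% held it at least 2 times. Also on either strand, 46.4% held the NKX2-5 letters, 14.7% the M-CAT letters and 13.6% the TATA letters. On the gene's strand alone, 8.32% held the TATA letters. The TATA letters on the gene's strand together with at least 2 GATAA matches occurred in 0.788% of windows. The motifs were chosen with the 2 printed sequences in view, so these shares are description only. These matches describe letters, and binding was not measured.

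The deleted microRNA is printed because it defines the genotype. The capitals mark the seed, bases 2 to 8, through which a microRNA pairs with its targets. The 2 mature arms have different seeds, and whether either transcript carries a match was not analysed here.
mmu-miR-22-3p: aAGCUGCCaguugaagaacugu
mmu-miR-22-5p: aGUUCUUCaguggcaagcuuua

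Nppb was a heart transcript in these libraries. Summed over its sites, wild-type heart held 3570 tags (1617 CPM) and knockout heart 2222 tags (733.1 CPM), a mean of 1175 ± 625 CPM (SD, n = 2). Lung followed with 20 tags in wild type and 28 in knockout (2.946 and 2.899 CPM). The other 8 tissue libraries held 0 to 4 tags each. Heart thus held 5792 of the 5848 Nppb tags of the 12 tissue libraries, or 99%, and its lower library stood 249-fold above the highest library of another tissue. Against total tags, with the cell lines included, that margin was 130-fold.

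Nppa was likewise highest in heart and next in lung, at a lower level. Wild-type heart held 381 tags (172.5 CPM) and knockout heart 286 tags (94.37 CPM), a mean of 133.4 ± 55.25 CPM (SD, n = 2). Lung held 9 tags in wild type and 4 in knockout (1.325 and 0.4142 CPM), wild-type liver 3 and wild-type kidney 1. The remaining 6 tissue libraries held none, which allows up to 0.8095 CPM in knockout kidney and up to 1.961 CPM in knockout muscle (3 tags). The lower heart library stood 71.2-fold above the highest other tissue library, or 39.9-fold against total tags.

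**Figure D1:**
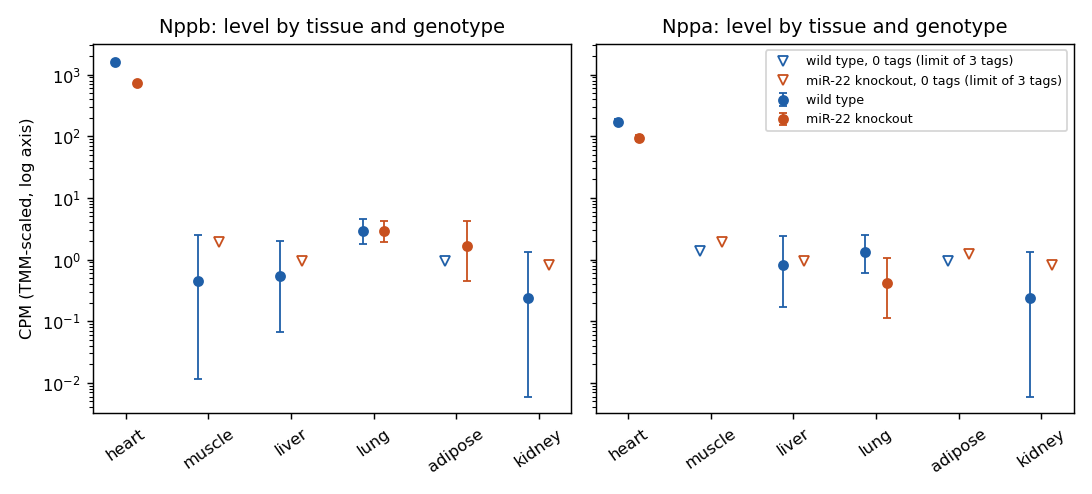
Level of Nppb (left) and Nppa (right), summed over each gene's sites, in CPM on a log axis for each tissue and genotype. Points are single libraries with exact Poisson 95% intervals, which cover counting error only, and open triangles mark libraries with 0 tags at the level 3 tags would give; both heart libraries of each gene stand above every other library.

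The leading site of each gene, the one with most tags, was tested with edgeR's quasi-likelihood test on all 23856 sites. Heart exceeded the mean of the other 5 tissues by 11.11 ± 0.412 (SE) on the log2 scale at the leading Nppb site (edgeR adjusted p = 4.18e-32) and by 9.82 ± 0.46 at the leading Nppa site (edgeR adjusted p = 1e-26). These fitted differences depend on how tissues with 0 tags are handled and are no bounds. Against lung, where all libraries held tags, the log2 difference was 8.53 ± 0.693 (SE) for Nppb and 7.38 ± 0.661 for Nppa (edgeR adjusted p = 5.77e-15 and 1.55e-13). Of the 11 sites, 4 passed the filter on low counts. The leading Nppa site failed it without the heart libraries, so its call as higher in heart was bound to follow, while the leading Nppb site passed without them too. The share of all tested sites called higher in heart at an adjusted p under 0.05 and 4-fold was 9.15%, and 11.7% were called higher in heart than in lung.

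Below heart, the order of Nppb was lung, adipose tissue, liver, muscle and kidney by mean CPM. Lung had 2.923 ± 0.0332 CPM (SD, n = 2), a spread narrower than the counting error on its 20 and 28 tags. The exact Poisson intervals were 1.799 to 4.549 CPM in wild-type and 1.927 to 4.19 CPM in knockout lung. Adipose tissue had 0 and 4 tags in its wild-type and knockout libraries. Intervals of some other libraries overlapped those of lung, that of knockout adipose tissue reaching from 0.4487 to 4.216 CPM. The leading Nppb site was higher in lung than in kidney by 4.29 ± 1.03 (SE) on the log2 scale, with an edgeR adjusted p of 0.00046. Against lung, muscle differed by -3.40 ± 1.14 (edgeR adjusted p = 0.0125) and liver by -3.26 ± 0.929 (edgeR adjusted p = 0.00279) on the same scale. Calls of at least 4-fold in these directions were made at 13.8% of tested sites against kidney, 17.7% against muscle and 18.5% against liver. Lung and adipose tissue, neighbours in the order, were not separated (log2 difference 1.96 ± 0.83 SE, edgeR adjusted p = 0.0606), nor were adipose tissue, liver, muscle and kidney from one another. Of all tested sites, 33.4% were called in either direction between lung and adipose tissue at an adjusted p under 0.05. Between the others the shares were 41.3% (muscle and liver), 26.6% (muscle and adipose tissue), 39.2% (muscle and kidney), 38.7% (liver and adipose tissue), 29.6% (liver and kidney) and 36.3% (adipose tissue and kidney).

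For Nppa no pair of tissues outside heart was separated at its leading site by the same test, including lung against muscle, liver and kidney, where 41.1%, 46.4% and 43% of all sites were called in either direction. Lung had the highest mean, 0.87 ± 0.644 CPM (SD, n = 2), followed by liver at 0.411 ± 0.582 and kidney at 0.118 ± 0.167, and muscle and adipose tissue had 0 tags in both libraries. The nearest to a call was lung against adipose tissue (edgeR adjusted p = 0.0511). Outside heart, 4 libraries held 1 to 9 Nppa tags and 6 held none, and the size of difference that such counts can show was not tested.

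The few tags in lung were set beside those of other sites that mark heart. A list was drawn of 301 other sites called higher in heart, with at least 50 CPM there and both heart libraries above the other 10. The list was chosen by these measured values and serves as description only. Lung held 0.251% of the heart level at the leading Nppb site, below every one of the 301 sites, whose values ran from 0.309% to 70.6% with a median of 4.49%. At the leading Nppa site it held 0.623%, with 273 sites above and 28 below. Against total tags these levels were 0.545% for Nppb and 1.31% for Nppa, and the median of the list was 9.25%. The Nppb value rests on 20 and 28 lung tags. Counting error was not allowed for in placing it under the lowest of the list.

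With TMM scaling, a group of 64 heart sites lay under 1% in lung, and their median was 0.744% in the wild-type and 0.47% in the knockout lung library. Nppa gave 0.957% and 0.288% in these libraries, and Nppb 0.253% and 0.249%. Whether the lung tags came from cells of the lung or from RNA of heart cells was not tested. In tissue libraries, a smaller number of expressing cells and less RNA per cell cannot be told apart.

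**Figure D2:**
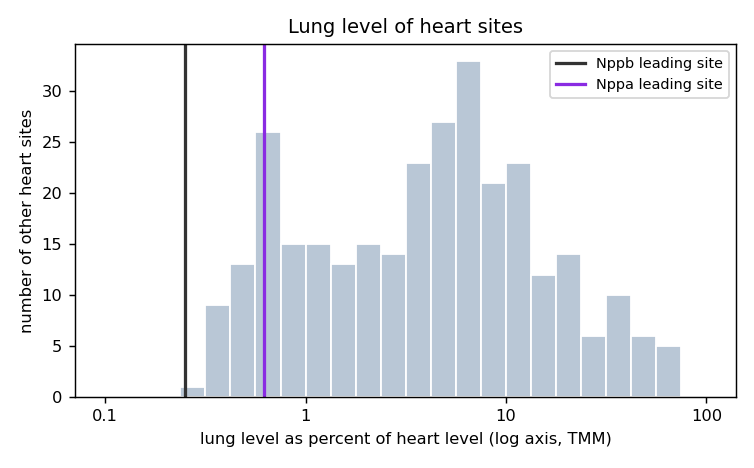
Histogram of the lung level as a percent of the heart level (means of 2 libraries each, TMM-scaled CPM, log axis) for 301 other sites high in heart, with lines at the leading Nppb and Nppa sites. Nppb lies at 0.251%, under all 301 sites, and Nppa at 0.623%, with 28 sites below it; against total tags they lie at 0.545% and 1.31%.

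The cell lines carried little of either transcript. The 3T3 library held 7 Nppb tags (1.652 CPM by total tags) and the mESC library 2 (0.5446 CPM by total tags). Neither held a Nppa tag, and 3 tags would be 0.7082 CPM by total tags in 3T3 and 0.8169 CPM by total tags in mESC. The heart libraries held 1062 and 605 CPM of Nppb by total tags.

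Within heart, Nppb tags outnumbered Nppa tags. A 3P-seq tag counts a transcript end whatever the transcript's length, so no correction for length was made. Whether the sites of the 2 genes yield tags equally well per transcript was not tested. Nppb made up 90.4% of the tags of the pair in wild-type heart (exact Clopper-Pearson 95% interval 89.4 to 91.3) and 88.6% in knockout heart (87.3 to 89.8), or 9.37 and 7.77 Nppb tags per Nppa tag. The odds of a Nppb tag were 0.829 times as high in knockout as in wild-type heart (exact 95% interval 0.703 to 0.979), a small difference between 2 libraries with counting error only. In lung Nppb made up 20 of 29 tags in wild type (69%, 49.2 to 84.7) and 28 of 32 in knockout (87.5%, 71 to 96.5), and these intervals overlap.

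The leading Nppb site was the 90th most abundant nuclear site of wild-type heart, with 0.136% of nuclear tags, and the 146th of knockout heart, with 0.0872%. The leading Nppa site ranked 879th and 1313th, with 0.0118% and 0.00923% of nuclear tags. Nppb thus ranked well above Nppa in both hearts.

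Nppb tags of heart were assigned almost wholly to 1 recorded end, which does not show cleavage at a single base. The 3′ end at 147361306 carried 3540 of 3570 tags in wild-type heart (99.2%, exact 95% interval 98.8 to 99.4) and 2200 of 2222 in knockout heart (99%, 98.5 to 99.4). The other Nppb tags of heart, 30 and 22, were spread over ends up to 1100 nt upstream. The cluster of ends between 681 and 764 nt upstream held 13 tags in wild type and 12 in knockout, and no tag of it was recorded outside heart. The other tissue libraries held 56 Nppb tags in all, so ends this rare could be missed there.

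Outside heart the recorded end of the Nppb site was not always the same. It was 147361306 in both lung libraries, in 3T3 and at the single tag of wild-type kidney. It was 147361312, 6 nt further downstream, in wild-type muscle, wild-type liver, knockout adipose tissue and mESC, which together held 9 tags. The sources used here do not say how the authors placed a site's end among nearby tags.

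Nppa tags were more divided. The main end at 147376233 carried 284 of 381 tags in wild-type heart and 213 of 286 in knockout heart, 74.5% in each. A second end, 95 nt upstream at 147376138, carried 62 and 47 tags, or 16.3% (exact 95% interval 12.7 to 20.4) and 16.4% (12.3 to 21.2). Another end, 42 nt upstream at 147376191, carried 19 and 17 tags, or 4.99% and 5.94%. The odds of the second end against the leading site, which includes the end at 147376191, were 0.996 times as high in knockout as in wild-type heart (exact 95% interval 0.641 to 1.54).

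The second Nppa end was also recorded in wild-type liver (1 tag), wild-type lung (2 tags) and knockout lung (1 tag). All tags further upstream than this end, and the 1 tag 125 nt downstream of the main end, came from the heart libraries. Over both genes, 8 of the 11 merged sites were seen in heart alone, and these held 71 tags. The other tissue libraries held only 56 Nppb and 17 Nppa tags at all sites, so ends this rare could be missed there. Whether these ends are used outside heart was thus not tested, and the share of all merged sites seen in heart alone was not computed. The main ends of Nppb and Nppa lay 14.9 kb apart.

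**Figure D3:**
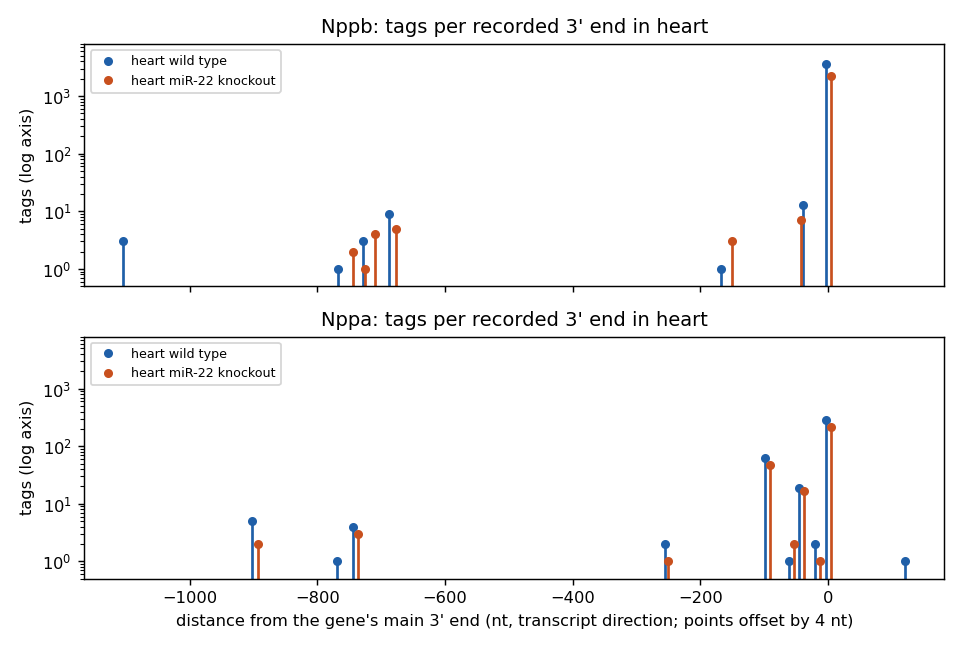
Tags at each recorded 3′ end of Nppb (top) and Nppa (bottom) in wild-type and knockout heart, on a log axis, against the distance in nt from the gene's main end. Nppb has 99.2% and 99% of its tags at 1 end, while Nppa has a second end 95 nt upstream with 16.3% and 16.4%.

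The knockout heart library held fewer tags of both genes than the wild-type one. Nppb was at 733.1 CPM in knockout against 1617 CPM in wild type, 2.21-fold lower (exact binomial 95% interval 2.09 to 2.33). Nppa was at 94.37 against 172.5 CPM, 1.83-fold lower (1.56 to 2.14). These are ratios of 1 library to 1, with no replicate check and counting error only. Of the 4525 sites with at least 20 CPM in a heart library, 13.8% were at least 2-fold lower in knockout.

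The size of this difference depended on how the heart libraries were scaled. Against total tags Nppb was 1.76-fold and Nppa 1.46-fold lower in knockout. Against nuclear tags they were 1.56-fold and 1.29-fold lower, the knockout heart library having the higher mitochondrial share, 31.3% against 22.6%. Under each of the 3 scalings both genes were lower in knockout and their intervals did not reach 1.

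With TMM scaling, other sites high in heart were also mostly lower in the knockout library. The median ratio of knockout to wild type over the 301 heart sites was 0.755, and the middle 80% of sites ran from 0.45 to 1.4. The leading Nppb site had a ratio of 0.453, with 270 sites above it and 31 below. The leading Nppa site had 0.555, with 229 above and 72 below. Over all 4525 sites with at least 20 CPM in a heart library the median was also under 1, at 0.914. Of these, 4075 lay above the leading Nppb site and 449 below, and 3660 lay above the leading Nppa site and 864 below. With total tags the median of the 301 sites was 0.948, against 0.569 for Nppb and 0.697 for Nppa. The ranks cannot change with this scaling, which multiplies every ratio by the same factor. Against nuclear tags the median of the list was not computed. The summed Nppb ratio rose from 0.569 with total tags to 0.641 with nuclear tags. This scaling too multiplies every ratio by the same factor, and that rise would take the list's median of 0.948 above 1. On that scale the list would not be mostly lower in knockout, while Nppb and Nppa were still lower.

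**Figure D4:**
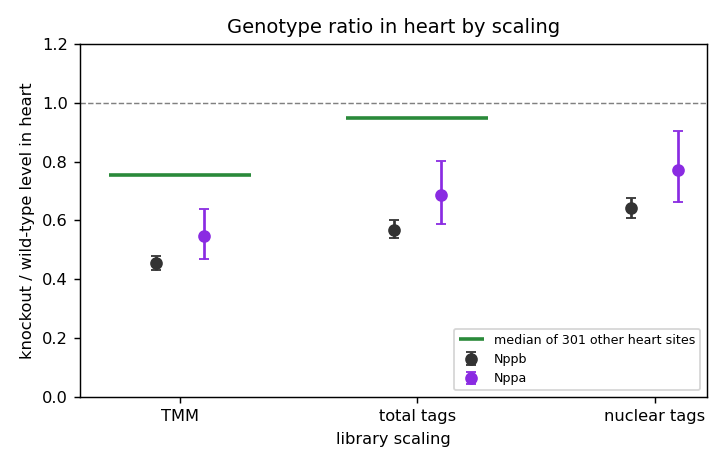
Ratio of knockout to wild-type level in heart for Nppb and Nppa under 3 library scalings, with exact binomial 95% intervals (1 library per genotype, counting error only). Green lines give the median of 301 other heart sites for TMM and total tags; both genes lie under 1 and under that median, at 0.454 and 0.547 with TMM.

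Over the 6 tissues the genotypes were not separated at either leading site. The log2 difference, knockout minus wild type, was -0.52 ± 0.481 (SE) for Nppb (edgeR adjusted p = 0.931) and -1.2 ± 0.523 for Nppa (edgeR adjusted p = 0.606, unadjusted 0.0255). The share of all tested sites called in either direction was 0.344%, and 6.97% had an unadjusted p under 0.05. Summed Nppb was lower in knockout in 5 of 6 tissues and higher in adipose tissue. Nppa was lower in 4 of the 4 tissues in which it had tags. Outside heart each of these directions rests on at most 28 tags in a library. In liver and kidney, and for Nppb in muscle, it rests on 1 to 3 wild-type tags against 0 in knockout. A count of 0 allows up to 3 tags, so these tallies do not show a shared direction. The lung direction of Nppb turned with the scaling, the ratio being 0.984 with TMM, 1.07 with total tags and 1.08 with nuclear tags. Without the heart libraries the Nppb difference was 0.05.

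In lung the Nppb ratio was 0.984 (exact binomial 95% interval 0.535 to 1.84) and the Nppa ratio 0.312 (0.0703 to 1.12), both intervals including 1. Whether the genotype difference in heart differed from that in the other 5 tissues was tested with a heart-by-genotype term. It was -1.19 ± 0.929 (SE) for Nppb and 1.08 ± 0.979 for Nppa, with an edgeR adjusted p of 1 for each (unadjusted 0.207 and 0.274), and 0.00838% of all sites were called. In simulated data this term recovered 0% of 4-fold differences and 90.5% of 16-fold ones. Without the wild-type or the knockout lung library the Nppa term was 2.14 or 2.04, and without the wild-type or the knockout adipose library the Nppb term was -0.63 or -0.61, on the log2 scale.

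Within 100 kb of the window, 61 other merged sites were recorded on both strands, of which 10 passed the filter and 3 reached 20 CPM in a library. By edgeR 0 of these 10 were called higher in heart at an adjusted p under 0.05 and 4-fold, against 9.15% of all tested sites, so that a count of 0 is near the background. The nearest tested site, at 147321368 to 147321422 (+), 33.6 kb away, had 18.7 ± 10.4 CPM in heart (SD, n = 2) and a median of 22.6 CPM in the other 10 tissue libraries. The log2 difference of heart from the other tissues ran from -1.96 to 1.68 over the 10 sites. At the upper end, a minus-strand site at 147451175 to 147451208 had 14.3 ± 0.214 CPM in heart, under the 4-fold limit (edgeR adjusted p = 0.00025).

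The sites most like each gene across the 12 tissue libraries were sought among 1998 sites with at least 50 CPM in heart, by Pearson's r of log2(CPM + 1). For Nppb they were chromosome 10, 53065340 to 53065388 (+) with r = 0.996, chromosome 3, 154449259 to 154449295 (-) with r = 0.994, and chromosome 15, 76846432 to 76846506 (-) with r = 0.993. For Nppa the closest was a site on chromosome 18 (r = 0.997), which is not described further here, followed by the chromosome 3 site (r = 0.997) and chromosome 17, 26975598 to 26975669 (-) with r = 0.997. Nppa and Nppb had r = 0.989 with each other, and 43 sites exceeded 0.95 with Nppb and 41 with Nppa. The 12 libraries come from 6 tissues, and the heart libraries set these values, so they are given as description.

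The sites with printed positions also had wild-type lung as their highest library after heart. At the chromosome 10 site, heart reached 742.4 CPM in wild type and 499.9 CPM in knockout, and wild-type lung 3.24 CPM. The chromosome 3 site had 258.6 and 167.7 CPM in heart and 1.18 CPM in wild-type lung. Both were lower in the knockout than in the wild-type heart library, as Nppb and Nppa were. The sites were chosen for likeness over these same libraries, which favours such a shared order.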

How the data were processed

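The submitters' processing notes name CASAVA 1.7, Bowtie and build mm9. The authors deposited, for each library, estimated counts of tags per poly(A) site, not scaled, and no source used here says how tags were grouped into sites. Sites whose intervals overlapped or touched were merged over the 14 libraries by strand, summed and rounded. Sites were kept by filterByExpr (minimum count 10, tissue as group), scaled by TMM, and fitted in R 4.3.3 with edgeR 4.0.16 (quasi-likelihood test, terms for tissue and genotype, 5 residual degrees of freedom, 12 libraries), with Benjamini-Hochberg adjustment over 23856 sites. Standard errors were taken from the F statistic. Shares of sites called higher or lower in a tissue used an adjusted p under 0.05 and a fitted difference of at least 4-fold. Genotype calls, the heart-by-genotype term and tissue calls in either direction used an adjusted p under 0.05 alone. Gene names come from fixed mm9 limits, and promoters and microRNAs from RefSeq by symbol, where both genes and both miR-22 arms matched. The members, lists and motifs were chosen with earlier results of these data known, and the motifs with the sequences in view. Named sites were all members, the neighbours within 100 kb and the 3 most like each leading site, of which some are printed. Tags have no molecular identifiers, so intervals and the floor of 3 tags cover counting error only. In simulated counts of 23856 sites with 200 changed, the heart test recovered 100% of 8-fold changes and the genotype test 14% of 2-fold and 95% of 4-fold changes. DESeq2 1.42.0, other scalings, filters, site definitions and left-out libraries were tried as alternatives.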

Additional observations from a re-analysis of the deposited data

Results flagged for a closer look

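The 3T3 library held 7 Nppb tags, more than the 3 tags that a count of 0 allows, in a cell line that enters no comparison between groups. On the minus strand of the window, the mESC library held 76 tags at chromosome 4, 147378368 to 147378395, again above that limit. No other library held more than 10 tags in a single deposited minus-strand record of the window, before overlapping records were merged. The heart libraries held 6 minus-strand tags there.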

How the results depend on the processing

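The heart difference kept its direction under 19 of 19 alternatives for each leading site. For Nppa this was bound to follow, since its site passed the filter on low counts only through the heart libraries. With no filter the Nppa difference was 9.58 (log2). Leaving out each of the 12 libraries in turn gave 10.5 to 12.1 for Nppb and 9.47 to 10.6 for Nppa (log2). An arm left with 1 library was assumed to vary like the other tissues. The genotype difference over tissues was not called under any alternative run (adjusted p 0.677 to 1 for Nppb and 0.506 to 1 for Nppa). Its leave-one-out range was -0.836 to 0.0559 for Nppb and -1.92 to -1.02 for Nppa, and with both heart libraries left out Nppb was at 0.0517; the positive values all came without a heart library. Nppa gave no value without both heart libraries, since its site then failed the filter. The heart-by-genotype term ran from -1.42 to -0.608 for Nppb and from 0.862 to 2.14 for Nppa with 1 library left out, and was 0.767 for Nppa with DESeq2; it could not be fitted without a heart library. With total counts and with nuclear tags the knockout ratio in heart was 0.569 and 0.641 for Nppb and 0.687 and 0.773 for Nppa. With leading sites only, Nppb made up 92% and 90.4% of the pair's tags in wild-type and knockout heart. With total counts, lung held 0.545% (Nppb) and 1.31% (Nppa) of the heart level. The heart difference without both lung libraries and the genotype difference with heart and lung only were added after the data were seen. Counts outside heart were small: Nppb had 56 and Nppa 17 tags in 10 libraries.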
